A study of Rattus norvegicus with 11 samples.

Results

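Tubular injury markers are transcripts whose levels are read as signs of damage to, or repair of, the epithelium of the kidney tubule. The 10 genes considered here were Havcr1, Lcn2, Spp1, Clu, Cd44, Gadd45b, Timp1, Sox9, Vcam1 and Cdkn1a, and their probes were found by the RefSeq identifier or gene name that the array gives. This yielded 13 probes for 9 of the 10 genes among 30367 non-control probes, with 4 probes for Cd44, 2 for Cdkn1a and 1 for each of the others. No probe matched Sox9, which was not analysed here. The samples were 11 renal cortex RNAs of Sprague Dawley rats, each hybridised to its own array with a single dye. Diabetes (DM) of type 1 had been induced with streptozotocin, a toxin of pancreatic beta cells, and 4 weeks later the rats underwent Roux-en-Y gastric bypass (RYGB), which reroutes the gut past most of the stomach, or a sham operation. Cortex was taken 4 weeks after the operation. The 4 groups were DM+RYGB (2 arrays), DM+Sham (3 arrays), Control+RYGB (3 arrays) and Control+Sham (3 arrays). The question put to these genes was whether they moved together 8 weeks after diabetes had been induced. The labels state neither the age of the rats nor the number of animals behind an array, so the p-values measure the spread between arrays, which may be technical.

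As background, an injured tubule cell places KIM-1, the product of Havcr1, on its surface, where it acts as a receptor for dead cells. Such cells also secrete lipocalin 2 (Lcn2), osteopontin (Spp1), clusterin (Clu) and TIMP-1, an inhibitor of matrix metalloproteinases. They display the hyaluronan receptor CD44 and the adhesion molecule VCAM-1, and they induce stress genes that act on the cell cycle, among them Gadd45b and Cdkn1a, which encodes the cyclin-dependent kinase inhibitor p21. Several of these genes also have a baseline level in the healthy kidney, and Spp1 is made by uninjured tubules as well.

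Levels are log2 signals of the probes on a scale that sets the 75th percentile of each array to 0. All 13 probes were well above background on all 11 arrays, none was saturated, and all passed the filter on dim probes. The 75th percentile lay between 864.36 and 2487 signal units, and between 77.69% and 93.5% of probes on an array were well above background. DM+Sham 2 and 3, and likewise Control+RYGB 2 and 3, differed by less than the noise between repeated spots and were each counted as 1 sample, which left 9 samples. The array DM+RYGB 2 stood apart. The summed log2 level of 12 heart and skeletal muscle genes was 9.41 there, 0.95 in DM+RYGB 1 and 0.03 to 0.88 in the other groups. For at least 1 probe of each member, DM+RYGB against DM+Sham is therefore also given without it. The changes and counts of the other lists include this array. All 12 proximal tubule genes of a marker list were well above background on all 11 arrays, as the label renal cortex implies. The words rose and fell are used of probes below an adjusted p of 0.05 with an equal sign under 3 scalings (75th percentile, median and quantile). The median change over all probes moved most with the scaling in DM+RYGB against DM+Sham, where it was 0.325 with the 75th percentile, -0.05 with the median and -0.068 with quantile scaling. The share of called probes that were higher was 64.2%, 37.2% and 37.6% in that order.

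The sequences around the start of 3 members are shown because these members had the widest distance between group means. They are 300 bases each from RefSeq on GRCr8, written 5′ to 3′ on the strand of the gene, and 8 of the 9 measured members had an entry. Capitals mark matches to a loose form of the serum response element, CC and GG with 6 bases of any kind between them, searched on both strands. Havcr1 lies at chr10:31629528-31629827 (plus strand), Spp1 at chr14:5619755-5620054 (minus strand) and Gadd45b at chr7:9430669-9430968 (minus strand).
Havcr1: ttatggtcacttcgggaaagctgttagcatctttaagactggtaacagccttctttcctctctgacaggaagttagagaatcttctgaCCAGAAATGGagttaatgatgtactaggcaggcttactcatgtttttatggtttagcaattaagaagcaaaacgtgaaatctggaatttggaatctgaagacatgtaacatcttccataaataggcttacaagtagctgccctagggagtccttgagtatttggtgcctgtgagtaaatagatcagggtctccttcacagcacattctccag
Spp1: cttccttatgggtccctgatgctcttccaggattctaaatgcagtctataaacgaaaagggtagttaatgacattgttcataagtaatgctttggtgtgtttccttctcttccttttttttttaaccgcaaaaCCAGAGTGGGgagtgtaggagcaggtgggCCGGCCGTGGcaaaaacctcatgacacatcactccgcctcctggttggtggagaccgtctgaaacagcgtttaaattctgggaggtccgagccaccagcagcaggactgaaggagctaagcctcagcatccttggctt
Gadd45b: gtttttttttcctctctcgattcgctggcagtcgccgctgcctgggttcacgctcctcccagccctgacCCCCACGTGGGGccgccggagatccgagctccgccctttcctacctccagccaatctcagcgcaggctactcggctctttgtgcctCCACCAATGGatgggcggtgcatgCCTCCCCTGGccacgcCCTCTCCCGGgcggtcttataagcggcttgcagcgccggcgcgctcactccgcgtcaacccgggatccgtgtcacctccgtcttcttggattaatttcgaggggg
The window of Havcr1 held 1 match, with its first base at position -162, where 0 is the start base. Spp1 held 2, at -117 and -88, and Gadd45b held 6, of which 3 overlapped. Such a match occurs in 71.5% of 33469 promoters of the same length, so most genes share it. Searches on both strands for TGANTCA (AP-1), TTCNNNGAA (STAT) and GGG, 2 bases of any kind and TTTCC (NF-kB) found no match in these letters for any of the 8 members with an entry. Those patterns occur in 7.33%, 8.87% and 1.53% of the same promoters. Sites spelled otherwise were not searched for, so the absence of a match does not show that a promoter lacks a site.

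In none of the comparisons did most of the injury marker probes pass in 1 direction. In DM+Sham against Control+Sham, 1 of 13 probes rose (1 of 4 for Cd44) and 2 fell (Havcr1 and Gadd45b), beside 6.29% of all 28489 probes tested that rose and 6.74% that fell. In DM+RYGB against DM+Sham none rose and 5 fell (Havcr1, Spp1, 2 probes of Cd44 and 1 of Cdkn1a), beside 10.2% and 15.7% of all probes. In Control+RYGB against Control+Sham 1 rose and 2 fell, beside 6.74% and 8.29%. In DM+RYGB against Control+RYGB none rose and 4 fell, beside 7.57% and 10.9%. The effect of bypass was higher in diabetic than in control rats for 1 probe and lower for 3, beside 6.52% and 9.64%. With 75th percentile scaling alone 4, 5, 6, 6 and 4 of the 13 probes were called in these 5 comparisons in turn, beside 18.7%, 48.2%, 24.1%, 30.3% and 23.3% of all probes. With the brightest probe of each of the 9 genes, the changes of DM+Sham against Control+Sham were above 0 for 5 genes and below 0 for 4. Those of DM+RYGB against DM+Sham were above 0 for 3 and below 0 for 6. The median change over the 13 probes was 0.11 in the first of these comparisons and -0.27 in the second, beside 0.043 and 0.325 over all probes. DM+Sham is part of both comparisons, so their values are not independent.

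**Figure D1:**
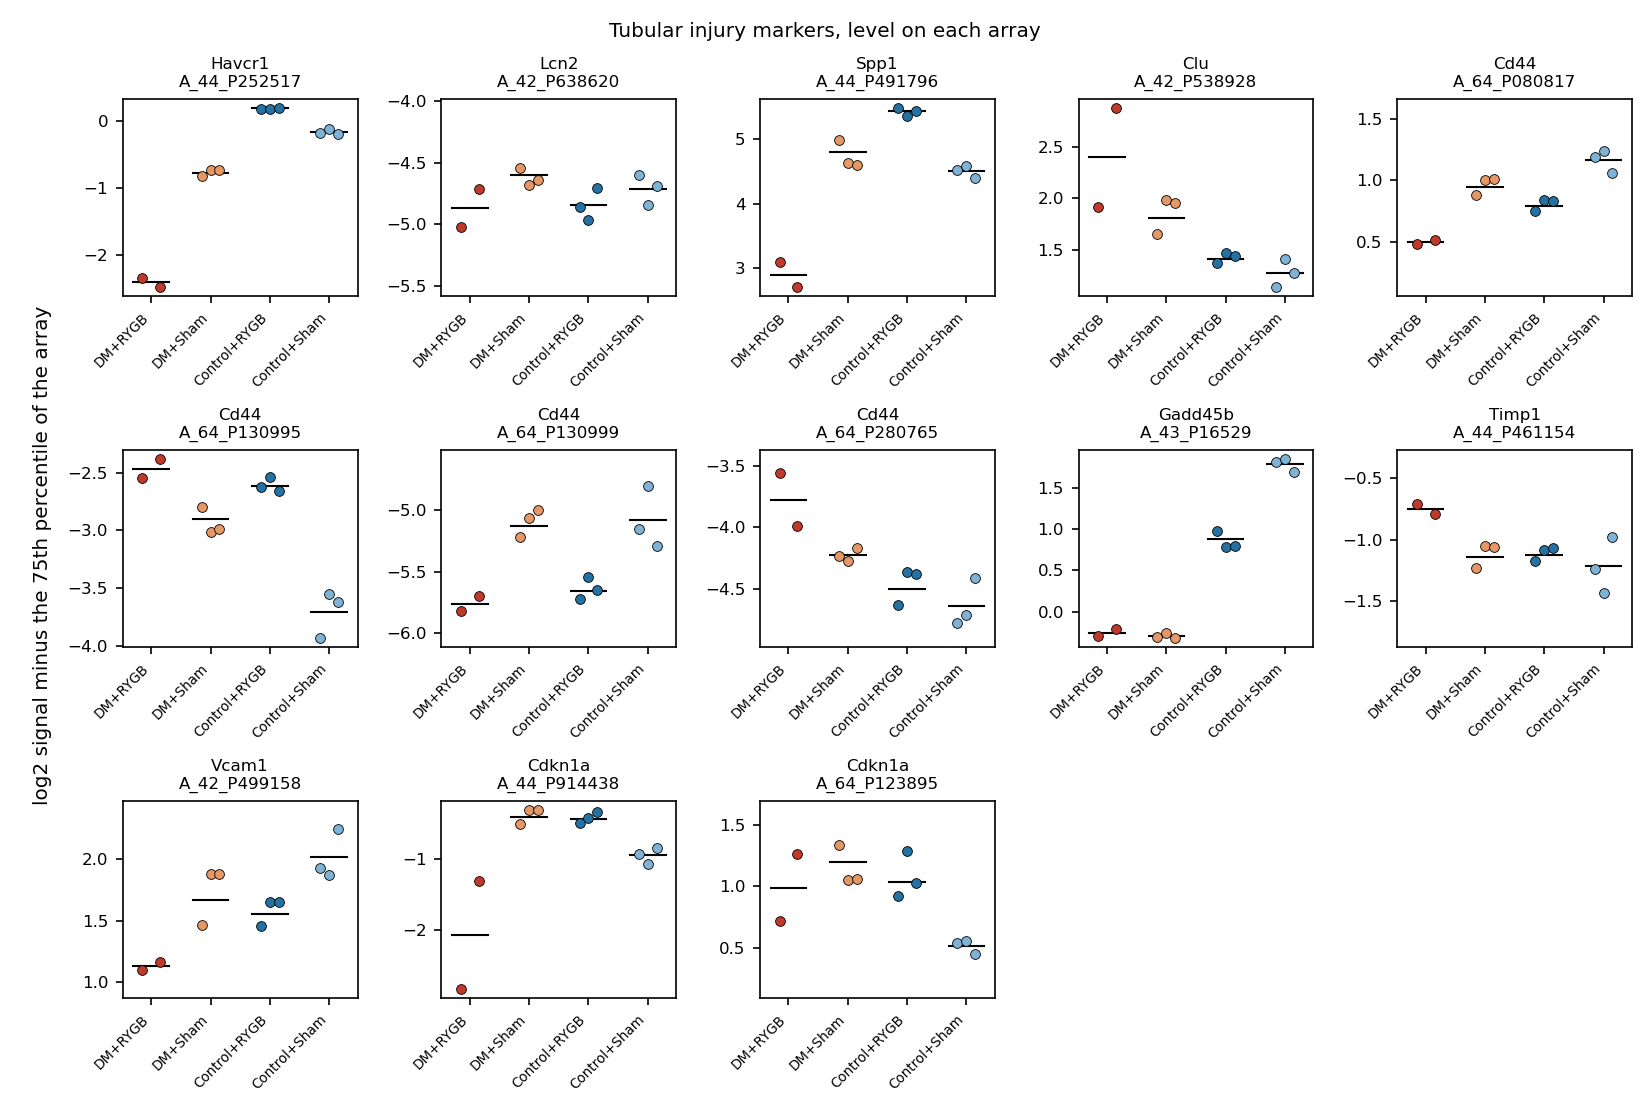
Levels of the 13 probes of 9 injury markers, in log2 signal minus the 75th percentile of the array, with 1 point for each of 11 arrays and a line at the mean over samples of each group. Havcr1 and Spp1 lie lowest on both DM+RYGB arrays and highest on the Control+RYGB arrays, while Gadd45b lies low on the arrays of both DM groups.

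Havcr1 fell with diabetes and lay lower still in diabetic rats with bypass. It stood at -2.33 and -2.47 in DM+RYGB, at -0.81, -0.73 and -0.73 in DM+Sham, at 0.19, 0.19 and 0.2 in Control+RYGB, and at -0.17, -0.12 and -0.19 in Control+Sham. No group overlapped another. DM+Sham against Control+Sham gave a log2 change of -0.62 (SE 0.0939, adjusted p 0.007), or 1.53-fold lower. Within the scan days that held both groups the difference was -0.70 on one and -0.55 on the other. With scan day as a block it was -0.62 with an adjusted p of 0.14, in a fit whose day terms left little data to estimate the spread. Normexp background correction gave -0.48 with an adjusted p of 0.7. DM+RYGB against DM+Sham gave -1.63 (SE 0.103, adjusted p 0.00023), or 3.08-fold lower, and -2 with median scaling. Its value was -1.60 on the scan day that the groups shared and -1.56 (adjusted p 5e-04) without DM+RYGB 2. The normexp correction reduced it to -0.88 (adjusted p 0.088). The difference of Control+RYGB from Control+Sham, 0.35 with an adjusted p of 0.041, did not pass under all 3 scalings. DM+RYGB against Control+RYGB gave -2.59 (adjusted p 4.9e-05), or 6.01-fold lower, with -2.52 and -2.66 on the days shared.

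Spp1, which encodes the secreted phosphoprotein osteopontin, had the same highest and lowest groups as Havcr1. Its level was 3.1 and 2.71 in DM+RYGB, 4.98, 4.62 and 4.6 in DM+Sham, 5.48, 5.36 and 5.43 in Control+RYGB, and 4.52, 4.58 and 4.39 in Control+Sham. The DM+RYGB arrays lay below all others and the Control+RYGB arrays above all others, while DM+Sham lay just above Control+Sham on every array. The difference of DM+Sham from Control+Sham was 0.30 and did not pass (adjusted p 0.25, 95% interval -0.10 to 0.70). DM+RYGB against DM+Sham fell by 1.90 (SE 0.182, adjusted p 0.00073), or 3.72-fold lower, and passed under all 24 alternatives run. The value was -1.51 on the shared day and -1.70 (adjusted p 0.0018) without DM+RYGB 2. DM+RYGB against Control+RYGB gave -2.54 (adjusted p 0.00029), or 5.81-fold lower, with -2.39 and -2.69 on the shared days. Control+RYGB against Control+Sham was 0.94 (adjusted p 0.013) with the 75th percentile and 0.48 (adjusted p 0.066) with quantile scaling. For both genes the effect of bypass differed between diabetic and control rats, by -1.97 for Havcr1 (adjusted p 0.00048) and by -2.84 for Spp1 (adjusted p 0.00095).

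Markers of the proximal tubule, where KIM-1 is made after injury, moved in the same comparisons. Of 12 measured, 6 fell and 1 rose in DM+RYGB against DM+Sham, with a median change of -1.17, beside 15.7% and 10.2% of all probes. In DM+RYGB against Control+RYGB 9 of these 12 markers fell and none rose, beside 10.9% and 7.57%. Their summed log2 level was 8.27 and 7.58 in DM+RYGB, 8.58 to 8.81 in DM+Sham, 9.12 to 9.41 in Control+RYGB and 8.24 to 8.8 in Control+Sham. The sum of DM+RYGB 1 lay within the range of Control+Sham, and only that of DM+RYGB 2, the array with muscle transcripts, lay below it. The sodium-coupled lactate carrier Slc5a12 fell by 4.36 and the endocytic receptor Cubn by 2.58 in DM+RYGB against DM+Sham, while the phosphate carrier Slc34a1 was at 0.22 (adjusted p 0.59) and the receptor Lrp2 at -0.09 (adjusted p 0.86). In DM+Sham against Control+Sham, where Havcr1 also fell, 1 of the 12 fell and none rose, beside 6.74% and 6.29% of all probes. The part of these markers in the levels of Havcr1 and Spp1 was not tested. In whole cortex fewer cells of a type and less RNA per cell cannot be told apart. All 3 Control+RYGB arrays had a slide position that no other array shared, so this group and the position cannot be told apart.

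**Figure D2:**
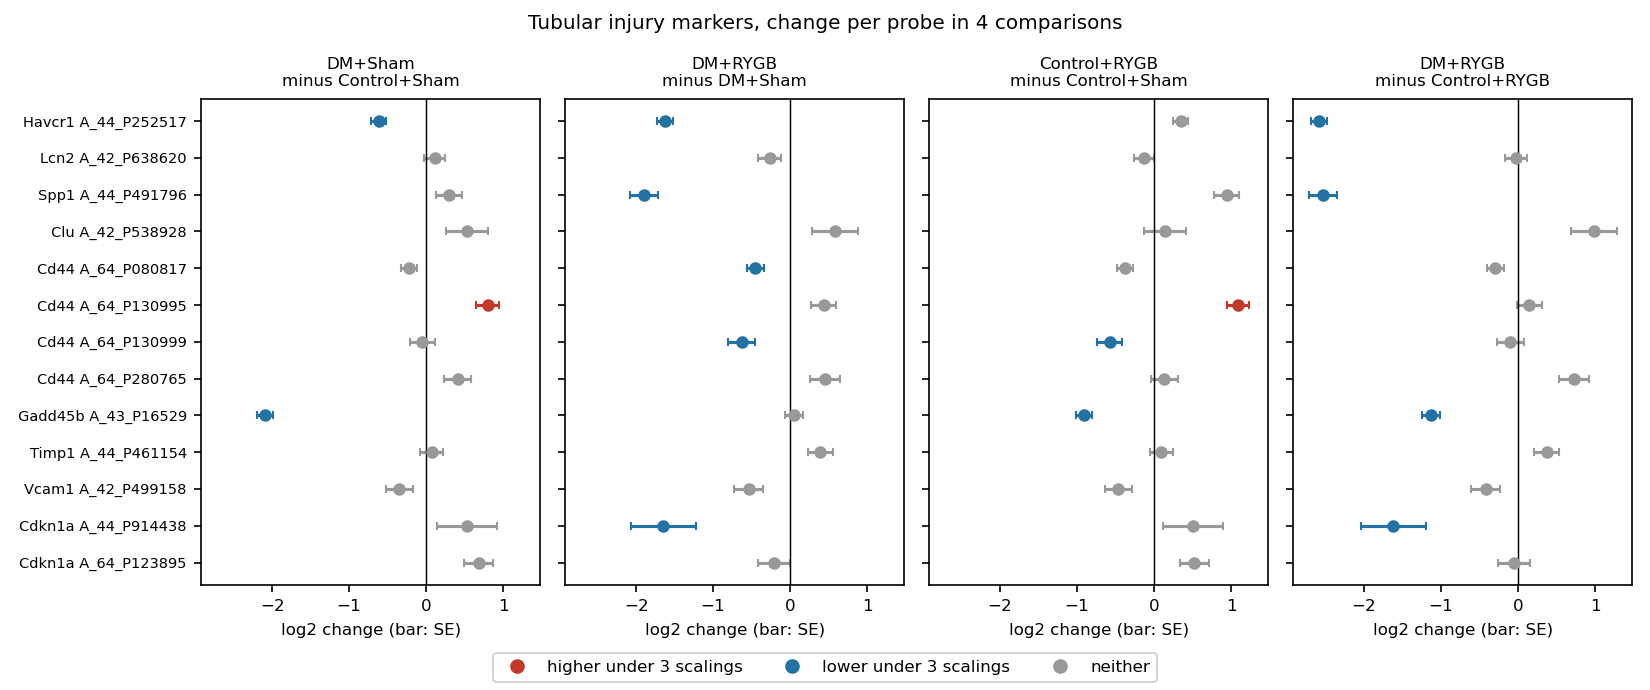
Log2 change of each probe with its standard error in 4 comparisons, coloured where the probe was higher or lower under 3 scalings. Havcr1, Spp1 and 1 probe of Cdkn1a lie furthest below 0 in both comparisons of DM+RYGB, and Gadd45b lies furthest below 0 in DM+Sham against Control+Sham.

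The other secreted markers passed in none of the comparisons under 3 scalings. Lcn2, an iron-siderophore carrier also known as NGAL, stood at -5.02 and -4.71 in DM+RYGB, at -4.54, -4.68 and -4.64 in DM+Sham, at -4.86, -4.96 and -4.7 in Control+RYGB, and at -4.6, -4.84 and -4.69 in Control+Sham. All 4 groups lay close together, with 0.27 between the highest and the lowest group mean. Its difference was 0.11 for DM+Sham against Control+Sham (adjusted p 0.6, 95% interval -0.20 to 0.43). For DM+RYGB against DM+Sham it was -0.27 with the 75th percentile (adjusted p 0.16), -0.64 with the median (adjusted p 0.014), -1.10 with quantile scaling (adjusted p 0.0037) and 1.26 with normexp (adjusted p 0.14), and without DM+RYGB 2 it was -0.42 (adjusted p 0.04). The probe was dim, with signals of 30.2 to 96.1 units.

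Clu, which encodes the chaperone clusterin, had its highest mean in DM+RYGB. Its level was 1.92 and 2.88 in DM+RYGB, 1.65, 1.98 and 1.96 in DM+Sham, 1.37, 1.47 and 1.44 in Control+RYGB, and 1.14, 1.41 and 1.28 in Control+Sham. Every array of a DM group lay above every Control array. The difference of DM+Sham from Control+Sham was 0.54 (adjusted p 0.22, 95% interval -0.11 to 1.18), and its adjusted p was 0.031 when either DM+RYGB array was left out of the fit. DM+RYGB against Control+RYGB was 0.98 with an adjusted p of 0.046, and 0.70 with 0.14 under median scaling. It was 1.46 (adjusted p 0.0026) without DM+RYGB 1 and 0.51 (adjusted p 0.074) without DM+RYGB 2. DM+RYGB against DM+Sham was 0.59 (adjusted p 0.14), and it was 1.06 (adjusted p 0.0069) without DM+RYGB 1 and 0.11 (adjusted p 0.62) without DM+RYGB 2, so the size of both rested on the array with muscle transcripts.

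Timp1 showed no call and the smallest differences after Lcn2. It stood at -0.71 and -0.79 in DM+RYGB, at -1.23, -1.05 and -1.06 in DM+Sham, at -1.17, -1.08 and -1.07 in Control+RYGB, and at -1.24, -1.43 and -0.98 in Control+Sham. Both DM+RYGB arrays lay above all others, and the other 3 groups overlapped. DM+RYGB against DM+Sham was 0.39 (adjusted p 0.087) and 0.02 (adjusted p 0.93) with median scaling. Without DM+RYGB 2 it was 0.43. DM+Sham against Control+Sham was 0.07 (adjusted p 0.77, 95% interval -0.28 to 0.43).

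Cd44, the hyaluronan receptor, was measured by 4 probes that disagreed in direction. On the brightest, A_64_P080817, the level was 0.48 and 0.51 in DM+RYGB, 0.88, 1 and 1.01 in DM+Sham, 0.75, 0.84 and 0.83 in Control+RYGB, and 1.19, 1.24 and 1.06 in Control+Sham. The DM+RYGB arrays lay below all others and the Control+Sham arrays above all others. This probe fell by 0.45 in DM+RYGB against DM+Sham (adjusted p 0.017), or 1.37-fold lower. Without DM+RYGB 2 the change was -0.47. The call was lost with normexp (adjusted p 0.054), with only the groups compared (0.12) and with scan day as a block (0.15). On A_64_P130995 the level was -2.55 and -2.38 in DM+RYGB, -2.8, -3.01 and -2.99 in DM+Sham, -2.62, -2.54 and -2.66 in Control+RYGB, and -3.93, -3.55 and -3.62 in Control+Sham. Here the Control+Sham arrays lay below all others, the opposite of the brightest probe. The probe rose by 0.80 in DM+Sham against Control+Sham (adjusted p 0.013) and by 1.09 in Control+RYGB against Control+Sham (adjusted p 0.0059). The first of these was 0.70 (adjusted p 0.072) without DM+Sham 1, and the second had an adjusted p of 0.055 without Control+RYGB 1. Both lost the call with normexp (adjusted p 0.68 and 0.3) and with scan day as a block (0.13 and 0.29). A_64_P130999 fell by 0.63 in DM+RYGB against DM+Sham (adjusted p 0.026) and by 0.58 in Control+RYGB against Control+Sham (adjusted p 0.045), but the first value was 1.35 (adjusted p 0.16) with normexp. Without DM+RYGB 1 it was -0.57 with an adjusted p of 0.084, and without DM+Sham 1 it was -0.72 with 0.052. The second lost the call without any 1 of Control+RYGB 1, Control+RYGB 3, Control+Sham 1, Control+Sham 2 and DM+Sham 1, at -0.61 to -0.44 with adjusted p of 0.054 to 0.21. With scan day as a block both calls of this probe were lost (adjusted p 0.13 and 0.43). A_64_P280765 passed in no comparison under 3 scalings. The last 3 probes were dim, with signals between 19 and 355 units, and the brightest reached 5180.

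Vcam1, the ligand of the leukocyte integrin that holds Itga4, had its highest mean in Control+Sham and its lowest in DM+RYGB. It stood at 1.1 and 1.17 in DM+RYGB, at 1.47, 1.88 and 1.88 in DM+Sham, at 1.46, 1.65 and 1.65 in Control+RYGB, and at 1.93, 1.87 and 2.25 in Control+Sham. The DM+RYGB arrays lay below all others, while DM+Sham overlapped both Control groups. DM+RYGB against DM+Sham was -0.54 (adjusted p 0.053), and -0.91 (adjusted p 0.0078) with median scaling alone. Without DM+RYGB 2 it was -0.58. DM+Sham against Control+Sham was -0.35 (adjusted p 0.21).

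Gadd45b, a stress-induced sensor that binds the kinase MEKK4, had the largest change of any member with diabetes under sham operation. Its level was -0.3 and -0.21 in DM+RYGB, -0.31, -0.26 and -0.32 in DM+Sham, 0.97, 0.78 and 0.79 in Control+RYGB, and 1.81, 1.85 and 1.69 in Control+Sham. The 2 DM groups overlapped each other and lay below both Control groups, and Control+RYGB lay between them and Control+Sham. DM+Sham against Control+Sham fell by 2.09 (SE 0.106, adjusted p 0.00013), or 4.25-fold lower, with -2.17 and -1.96 on the shared scan days, and passed under all 24 alternatives. DM+RYGB against DM+Sham was 0.05 (adjusted p 0.75, 95% interval -0.23 to 0.32). Without DM+RYGB 2 it was 0.001. Control+RYGB against Control+Sham fell by 0.91 (adjusted p 0.0039), with -0.84 (adjusted p 0.35) when scan day was a block, and DM+RYGB against Control+RYGB fell by 1.13 (adjusted p 0.00096), with -1.27 and -0.998 on the shared days. The effect of bypass differed between diabetic and control rats by 0.95 (adjusted p 0.0075). Markers of urothelium moved in the same direction as Gadd45b in DM+Sham against Control+Sham, as 6 of 9 fell, beside 6.74% of all probes. In Control+RYGB against Control+Sham 6 of 9 fell too, beside 8.29%. The summed log2 level of these markers was 1.85 to 1.87 in DM+Sham and 2.81 to 2.89 in Control+Sham. It was 1.83 to 1.95 in Control+RYGB, and 3.2 and 2.93 in DM+RYGB, where most of it came from Tp63. The order of the groups thus differed from that of Gadd45b, and the part of these markers was not tested.

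Cdkn1a was measured by 2 probes that differed in DM+RYGB. On A_44_P914438 the level was -2.82 and -1.32 in DM+RYGB, -0.52, -0.32 and -0.32 in DM+Sham, -0.51, -0.43 and -0.35 in Control+RYGB, and -0.94, -1.07 and -0.85 in Control+Sham. The DM+RYGB arrays lay below all others, with an SD of 1.06 (n = 2), the widest of any member within a group. This probe fell by 1.65 in DM+RYGB against DM+Sham (SE 0.425, adjusted p 0.019), and by 1.62 in DM+RYGB against Control+RYGB (adjusted p 0.029). Without DM+RYGB 1 the first value was -0.90 (adjusted p 0.0061) and without DM+RYGB 2 it was -2.39 (adjusted p 0.00052). It lost the call without DM+Sham 1 (-1.75, adjusted p 0.052), with only the groups compared (adjusted p 0.1) and with scan day as a block (adjusted p 0.067). The second lost it without Control+RYGB 1 (-1.68, adjusted p 0.11) or Control+Sham 1 (adjusted p 0.054), with only the groups compared (adjusted p 0.13) and with scan day as a block (adjusted p 0.075). On A_64_P123895 the level was 0.72 and 1.26 in DM+RYGB, 1.34, 1.05 and 1.06 in DM+Sham, 0.92, 1.29 and 1.03 in Control+RYGB, and 0.54, 0.56 and 0.45 in Control+Sham. Here the Control+Sham arrays lay below all others and the other 3 groups overlapped. In DM+Sham against Control+Sham both probes were above 0. On A_44_P914438 the difference was 0.53 (adjusted p 0.38), and its adjusted p was 0.017 when either DM+RYGB array was left out of the fit. On A_64_P123895 it was 0.68, with an adjusted p of 0.048 and of 0.079 and 0.057 with median and quantile scaling. With either DM+RYGB array left out it stayed at 0.68 with a lower adjusted p, as all 4 groups share 1 estimate of the spread. A_64_P123895 was at -0.21 (adjusted p 0.41) in DM+RYGB against DM+Sham.

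The members differed in which group was highest. The highest mean was in Control+RYGB for Havcr1 and Spp1. It was in DM+RYGB for Clu and Timp1, in Control+Sham for Gadd45b, Vcam1 and the brightest Cd44 probe, and in DM+Sham for Lcn2 and both Cdkn1a probes. More of them shared the lowest group, as the lowest mean was in DM+RYGB for Havcr1, Spp1, Vcam1, Lcn2, the brightest Cd44 probe and A_44_P914438, the dimmer Cdkn1a probe. For Lcn2 this mean was -4.867, beside -4.844 in Control+RYGB. The brighter Cdkn1a probe was lowest in Control+Sham. Of the dim Cd44 probes, A_64_P130999 was lowest in DM+RYGB, while A_64_P130995 and A_64_P280765 were highest there. With the dim Cd44 probes left aside, several neighbours in these orders overlapped on single arrays. They were the groups of Lcn2, DM+RYGB and DM+Sham for Gadd45b, DM+Sham and Control+RYGB for A_44_P914438 of Cdkn1a, the upper 3 groups for its other probe and for Vcam1, and the lower 3 for Timp1. For Clu the DM groups overlapped each other, as did the Control groups. The distance between the highest and the lowest group mean ran from 0.27 for Lcn2 to 2.59 for Havcr1.

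The genes whose levels over the 9 samples were most like those of Havcr1 were Folh1 (Pearson's r 0.9979), Spp2 (0.9975), Slc7a7 (0.9964), Inpp5f (0.9954) and Idh1 (0.995), among 12220 genes well above background on all arrays. Folh1 encodes a membrane peptidase, Slc7a7 a subunit of a transporter of cationic amino acids and Idh1 the cytosolic isocitrate dehydrogenase that makes NADPH. Folh1 stood at -1.84 and -2.45 in DM+RYGB, at 0.88 to 1.05 in DM+Sham, at 2.51 to 2.69 in Control+RYGB and at 2.08 to 2.11 in Control+Sham. The samples fall into 4 groups that these values separate, so r describes the group means and carries no p. For Lcn2 the nearest genes were Icam5 (0.8938), Ogn (0.8867), Stat5b (0.8858), Tsc2 (0.8838) and Ndufa11 (0.8835). The groups of Lcn2 overlapped and its probe was dim. These values are only the highest of 12220 over 9 samples and carry no p, so the genes are not read as moving with Lcn2.

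**Figure D3:**
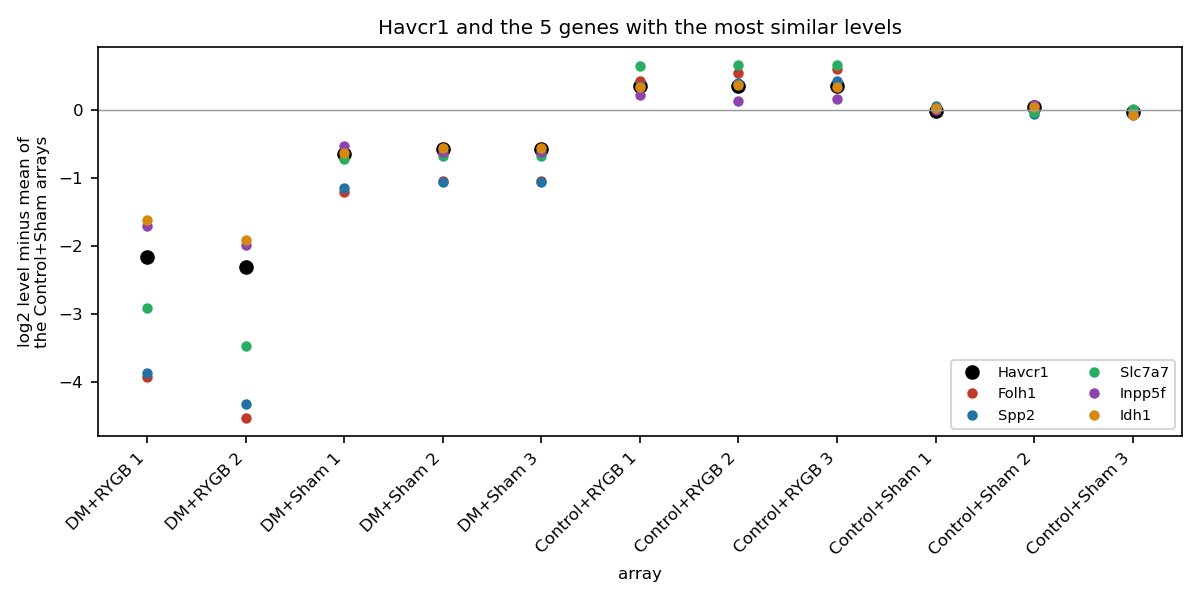
Log2 level of Havcr1 and of the 5 genes most like it on each of 11 arrays, less the mean of the Control+Sham arrays. All 6 lie lowest on the DM+RYGB arrays and highest on the Control+RYGB arrays.

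Other genes of tubular injury and repair also moved in both directions. This list was not divided by the direction that each gene takes in injury, so its counts do not measure injury. Of 42 measured, 1 rose and 10 fell in DM+Sham against Control+Sham, with a median change of -0.25 beside 0.043 over all probes. Of all probes 6.29% rose and 6.74% fell. The trefoil peptide Tff3 fell by 6.53 (SE 0.197, adjusted p 1.6e-05) and the growth factor Areg by 2.19, while Fgb, a chain of fibrinogen, rose by 0.75. In DM+RYGB against DM+Sham 11 rose and 9 fell, beside 10.2% and 15.7% of all probes. Tff3 rose by 3.45 and Igfbp7, a secreted binding protein, by 2.52, while the fibrinogen chains Fga and Fgb fell by 3.41 and 2.62. The chains did not move together. In DM+Sham against Control+Sham Fgg fell by 0.85 (adjusted p 0.0044) and Fga was at 0.34 (adjusted p 0.2). In DM+RYGB against DM+Sham Fgg was at 0.92 (adjusted p 0.0022), which did not pass under all 3 scalings. Fgb is also on the list of liver markers. Krt20, which is also a urothelium marker, fell by 1.89 in the first comparison and rose by 2.46 in the second. Of the 9 measured urothelium markers 6 fell in the first comparison, and 2 rose in the second (Krt20 and Tp63). Their summed log2 level was 3.2 and 2.93 in DM+RYGB, 1.85 to 1.87 in DM+Sham, 1.83 to 1.95 in Control+RYGB and 2.81 to 2.89 in Control+Sham. Most of the sum in DM+RYGB came from Tp63, at 2.88 and 2.68 there and 0.98 to 1 in Control+Sham. The uroplakin Upk1a stayed below Control+Sham, at -2.74 and -3.28 in DM+RYGB, -3.66 to -3.54 in DM+Sham and -0.94 to -0.84 in Control+Sham, and Upk1b, Upk2, Upk3a and Krt15 did likewise. Krt15 and Upk2 were below background on some arrays, and the part of urothelium was not tested.

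Of 28 measured ligands, receptors and partners of the members, 1 rose and 5 fell in DM+Sham against Control+Sham, beside 6.29% and 6.74% of all probes. In DM+RYGB against DM+Sham 4 rose and 4 fell, beside 10.2% and 15.7%. The hyaluronidase Hyal1 rose by 1.56 in the first comparison and fell by 1.61 in the second. Has1, a hyaluronan synthase, rose by 1.85 in the second, where Timp3 fell by 1.11, and the gelatinase Mmp9 fell by 0.98 in the first. Mmp3 passed as lower in DM+Sham than in Control+Sham (adjusted p 0.009) and as higher in DM+RYGB than in DM+Sham (adjusted p 0.0044). It was not well above background on any DM+Sham array and was so on 1 of 2 DM+RYGB and 1 of 3 Control+Sham arrays. The sizes of these differences are therefore not given. Gadd45g, a relative of Gadd45b, fell by 0.86 in DM+Sham against Control+Sham and rose by 1.29 in DM+RYGB against DM+Sham, where Gadd45b was at 0.05.

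Targets of p53 and cyclin-dependent kinase inhibitors, the company of Cdkn1a, split as well. Of 24 measured, 4 rose and 3 fell in DM+Sham against Control+Sham, beside 6.29% and 6.74% of all probes. In DM+RYGB against DM+Sham 1 rose and 6 fell, beside 10.2% and 15.7%. In the first, the p53 target Phlda3 rose by 1.46 and the inhibitor Cdkn1c by 1.12, while Btg2, also an immediate early gene, fell by 1.44 and the stress cytokine Gdf15 by 0.78. In the second, cyclin G1 (Ccng1) rose by 1.77, while Tp53inp1 fell by 1.31 and the stress sensor Sesn2 by 1.09.

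Of 28 immediate early genes 13 fell and 1 rose in DM+Sham against Control+Sham, where Gadd45b fell, with a median change of -0.94. Of 16 NF-kB targets 9 fell and none rose, with a median of -0.72. Of all probes 6.74% fell and 6.29% rose. The transcription factor Atf3 fell by 2.32 and Fosl1 by 2.78, although Fosl1 was well above background on only 2 of 3 DM+Sham arrays. The chemokine Cxcl2 fell by 3.94, and its relative Cxcl1 fell by 2.42. The gene that rose was Jund, an AP-1 subunit that is less dependent on stimulation than its relatives, which rose by 3.68. In DM+RYGB against DM+Sham the counts were 1 higher and 4 lower of 28, and 1 higher and 4 lower of 16, beside 10.2% and 15.7% of all probes. Jund fell by 3.03 there, Tnf fell by 1.40, Ccl20 by 0.52, Cxcl1 rose by 2.19 and the matricellular gene Ccn1 by 1.18. Fosl1 passed as lower in DM+RYGB than in DM+Sham (adjusted p 0.029). It was not well above background on either DM+RYGB array, so the size of that difference is not given.

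**Figure D4:**
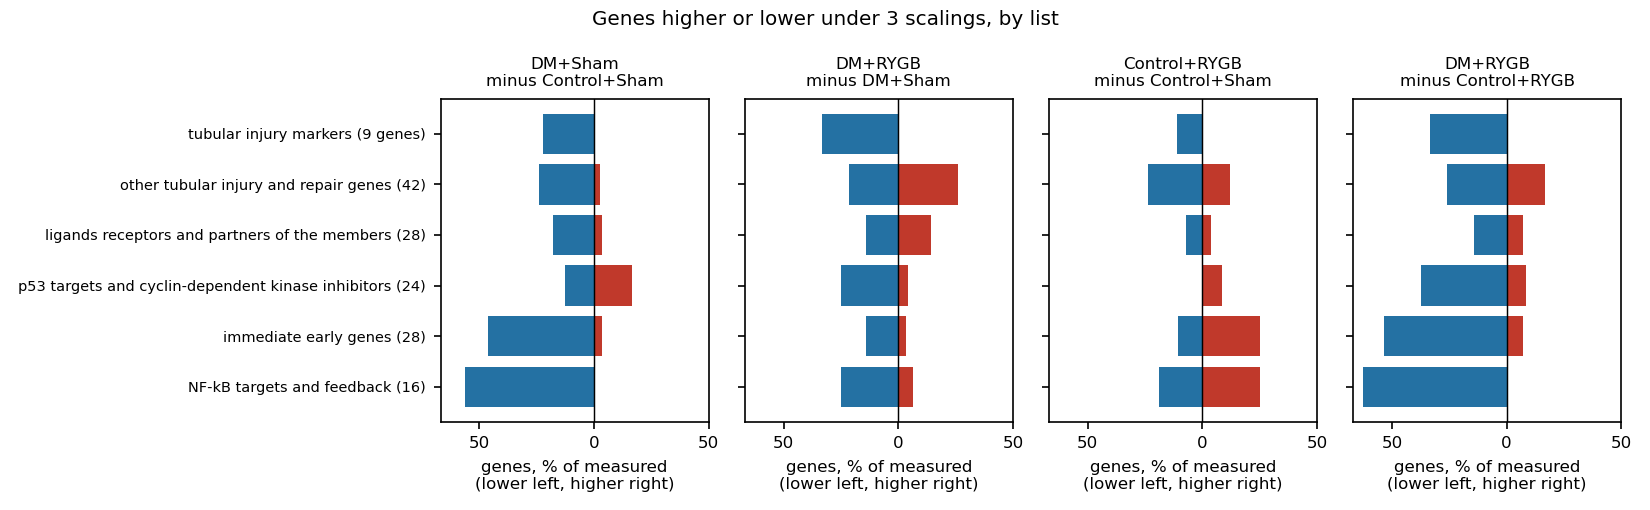
Share of measured genes of each list that were higher (right, red) or lower (left, blue) under 3 scalings in 4 comparisons, in percent, with the number measured beside the name of the list. In DM+Sham against Control+Sham 9 of 16 NF-kB targets and 13 of 28 immediate early genes were lower, beside 2 of 9 injury markers.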

How the data were processed

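The arrays were Agilent rat gene expression slides with 1 dye. Per the file headers, the authors extracted spot intensity with Agilent Feature Extraction 11.0.1.1, whose processed signal is background-subtracted and not scaled across the series. The deposited table holds log2 values with a median of 7.0738 in every column, and its correlation with log2 of the scanner signal was 0.9887 to 0.9969. How its values were scaled is not given in the sources used here, and it served as an alternative only. Of 44254 spots, 1377 control spots were left out and spots of a probe were averaged, which gave 30367 probes (18005 with a gene symbol, 12362 with none here).

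Each processed signal was turned into log2 and the array's 75th percentile was subtracted. The test covered 28489 probes that exceeded background clearly on 2 arrays or more. The model of group means (limma 3.58.1 under R 4.3.3, with lmFit and then eBayes) held 4 groups and 9 samples, and all p-values are from limma with Benjamini-Hochberg adjustment over all probes tested and a threshold of 0.05. On the probes with repeated spots, the spread between DM+Sham 2 and 3 was 0.01988, against a spot noise of 0.07083 and 0.07001, and that between Control+RYGB 2 and 3 was 0.04867, against 0.09529 and 0.07801, so each pair was averaged. Changes of 0.5, 1 and 2 (log2) for DM+Sham against Control+Sham were simulated in a small part of 28489 probes, and 1.5%, 28.4% and 72.7% were recovered. That part was far smaller than the share called in the data (18.7%), so these figures do not measure recovery there.

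Every member probe is named. Of the other lists, the 2 largest rises and falls under 3 scalings are named for 2 comparisons, 1 probe a gene. Krt20, Gadd45g, the proximal tubule examples, Fgg, and Fga in DM+Sham against Control+Sham were chosen after their values were seen. The genes most like Havcr1 and Lcn2 are the 5 of highest r. The members and lists were chosen with earlier results of these data known. The alternatives were other scalings, normexp (offset 50), the deposited table, other filters, 1 probe per gene, 11 separate arrays, a replicate block, scan day as a block, only the groups compared, and leaving out arrays. The arrays were scanned on 5 days, none of which held both Control+RYGB and Control+Sham. DM+Sham 2 and 3 were scanned on different days. In the fit with scan day as a block they therefore entered as separate samples, although they were averaged in the main fit.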

Additional observations from a re-analysis of the deposited data

Results flagged for a closer look

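The effect of bypass differed between diabetic and control rats for 4 member probes, by the interaction term of the limma model. For Havcr1 the difference of effects was -1.97 (SE 0.139, adjusted p 0.00048), as the change with bypass was -1.63 in diabetic rats and 0.35 in control rats. For Spp1 it was -2.84 (SE 0.247, adjusted p 0.00095), from -1.90 in diabetic and 0.94 in control rats. For Cdkn1a on A_44_P914438 it was -2.15 (SE 0.575, adjusted p 0.038), from -1.65 in diabetic and 0.50 in control rats, and it was -1.41 without DM+RYGB 1 and -2.90 without DM+RYGB 2. That call was lost without any 1 of Control+RYGB 1, DM+Sham 1 and Control+Sham 1, 2 or 3, with adjusted p of 0.061 to 0.1, and with scan day as a block (0.11). The other Cdkn1a probe had -0.73 (adjusted p 0.1), and -1.01 (adjusted p 0.018) without DM+RYGB 2. For Gadd45b it was 0.95 (SE 0.157, adjusted p 0.0075), from 0.05 in diabetic and -0.91 in control rats. With scan day as a block the adjusted p was 0.053 for Havcr1 and 0.11 for Gadd45b, and with normexp it was 0.14 for Havcr1. Interactions passed for 6.52% of all probes upward and 9.64% downward. The Control+RYGB arrays entering each of these share a slide position of their own, which cannot be told apart from the group.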

How the results depend on the processing

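Over the alternatives run, 1352 values of single probes kept their side of the threshold, 120 lost the call and 54 gained it. Of the 1352, 45 changed sign without a call on either side. 1 called value reversed: Cd44 on A_64_P130999 in DM+RYGB against DM+Sham, -0.63, was 1.35 with normexp. Dim probes limit what can be read from Lcn2 and 3 of the Cd44 probes. The counts below are probes called with the 75th percentile, in the order DM+Sham against Control+Sham, DM+RYGB against DM+Sham, Control+RYGB against Control+Sham, DM+RYGB against Control+RYGB and interaction, where not named.

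Of the 13 member probes 4, 5, 6, 6 and 4 were called. With normexp the first 3 counts were 1, 2 and 0. With scan day as a block all 5 were 1, 2, 0, 3 and 1. With 11 separate arrays DM+RYGB against DM+Sham had 9, and 10 with the replicate block added, beside 17947 and 17050 of all 28489 probes. The same comparison had 2 with only the groups compared. With 1 probe per gene it had 3 of 9, beside 12220 of 25250. DM+RYGB against Control+RYGB had 3 with only the groups compared, and Control+RYGB against Control+Sham had 3 with quantile scaling. Without both merged DM+Sham arrays the first 3 counts were 2, 2 and 3. Without both merged Control+RYGB arrays, Control+RYGB against Control+Sham had 1 and DM+RYGB against Control+RYGB had 3. Leaving out 1 array at a time gave 2 to 6, 4 to 7, 1 to 8, 3 to 6 and 3 to 5.

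Over all probes 5336, 13733, 6865, 8628 and 6626 were called. With normexp these were 323, 5727, 269, 4231 and 1851, and with scan day as a block 380, 3559, 0, 3120 and 340, the 0 with 3810 probes at an unadjusted p under 0.05. With 11 separate arrays DM+Sham against Control+Sham had 10036, Control+RYGB against Control+Sham 12401 and the interaction 10862, and with the replicate block added these were 9489, 11675 and 10059. With only the groups compared DM+RYGB against DM+Sham had 5741 and DM+RYGB against Control+RYGB 2464. Without both merged DM+Sham arrays the first had 1522, the second 7892 and the interaction 3709. Without both merged Control+RYGB arrays the counts were 3525 for the first, 807 for Control+RYGB against Control+Sham, 4253 for DM+RYGB against Control+RYGB and 2994 for the interaction. Leaving out 1 array at a time gave 2431 to 8675 (lowest without Control+Sham 1, highest without DM+RYGB 1), 10695 to 14217, 849 to 10026 (without Control+RYGB 1 and DM+RYGB 1), 4150 to 10460 (without Control+RYGB 1 and DM+RYGB 2) and 3287 to 9439 (the same). The share of higher calls moved with the scaling: 56.3%, 64.2%, 62.8%, 58.4% and 53.2% with the 75th percentile, 43.2%, 37.2%, 42.2%, 30.1% and 35.5% with the median, and 54.5%, 37.6%, 39.6%, 45.4% and 42.5% with quantile scaling. Except where fewer samples or probes entered, the cause was not tested.

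Arrays of the same number did not deviate together (15 pairs, r -0.38 to 0.45, 5 over 0.1, and the own number correlated best in 14 of 30 checks), so the numbers were not read as pairs.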

Other observations

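In DM+RYGB against Control+RYGB, 10 of 16 NF-kB targets fell and none rose, and 15 of 28 immediate early genes fell and 2 rose. Of all probes 10.9% fell and 7.57% rose. The chemokine Cxcl10 fell by 4.54 and Ccl20 fell by 3.28, the growth-response factor Egr2 fell by 4.08, and the fibrinogen chains Fga, Fgb and Fgg fell by 3.90, 2.90 and 2.07. In Control+RYGB against Control+Sham, 4 of 16 NF-kB targets rose, with Cxcl10 at 2.68 and Ccl20 at 2.38, and 3 fell, with Cxcl2 at -2.23. Of all probes 6.74% rose and 8.29% fell there. Control+RYGB is part of both comparisons, and these genes were chosen after their values were seen.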
